A study of Mus musculus with 6 samples.

Results

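FOXA1, also called HNF3α, is a forkhead transcription factor that opens closed chromatin, and in breast and prostate epithelium it works beside steroid hormone receptors. A set of 8 genes known from those tissues as its partners or targets was examined in kidney tubule cells that had been given the Foxa1 gene on a plasmid. Tle3 and Gata3 encode partners, Grhl2 and Spdef encode transcription factors of epithelial and secretory cells, and Greb1, Tff1, Tff3 and Agr2 are targets known from hormone-responsive tumours. The genes were found by symbol in the gene table. Of the 8 genes, 5 were analysed among the 29595 genes of the table, and Tff1, Tff3 and Agr2 were not analysed here. Of these 5, Tle3, Grhl2 and Gata3 had enough counts to be tested, and Greb1 and Spdef were too low to test.

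The cells were TKPTS cells, a mouse line labelled as renal proximal tubule cells. In the Hnf3a group (3 libraries, genotype label HNF3alpha overexpression) the cells received the plasmid pcDNA3.1-Hnf3a-Flag, and in the pcDNA group (3 libraries, genotype label WT) they received pcDNA3.1-Flag without the insert. All were harvested 24 h after transfection. Values written below as "with Hnf3a" or "with pcDNA" are those of libraries 1, 2 and 3 of that group, in this order. Both groups came from 1 cell line and both carried a plasmid, and no source used here says that the 3 cultures of a group were grown separately, so p-values measure the spread between these libraries, which may be technical.

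In breast epithelium, FOXA1 binds together with GATA3 and the oestrogen receptor at enhancers, and the secreted proteins TFF1 and TFF3, the growth regulator GREB1 and the disulphide isomerase AGR2 are among the products raised there. TLE3 belongs to the Groucho family of corepressors, which do not bind DNA themselves and are recruited by factors such as FOXA1. GRHL2 maintains epithelial junction genes, and SPDEF drives the maturation of goblet and other secretory cells.

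The total estimated count lay between 60473818 and 71154667 per library, and 17824 genes were tested. In edgeR's quasi-likelihood test, 565 genes passed an adjusted p of 0.05, which was 3.17% of those tested (186 higher in the Hnf3a group, or 1.04%, and 379 lower, or 2.13%). The median log2 fold change over all genes tested was 0.001. Foxa1 itself was at 334, 296 and 284 FPKM (fragments per kilobase of transcript, scaled to library size) with Hnf3a and at 9.49, 9.54 and 9.96 FPKM with pcDNA, a 31.3-fold difference (edgeR log2 fold change 4.97, SE 0.067, adjusted p 5.99e-10). This level sums the transcripts of the plasmid and of the chromosome. The kidney epithelial factor Pax8 lay at 27.5 to 31.4 FPKM, whereas the defining proximal tubule genes Lrp2 and Cubn lay at 0.0138 to 0.0426 FPKM and 0.0258 to 0.0534 FPKM and Aqp1, a water channel gene of the proximal tubule, at 0.844 to 1.23 FPKM.

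The promoters of Tle3, the gene of the set that rose, and of Spdef, the gene whose window alone held a forkhead motif, are shown first. RefSeq windows of 250 bases before the transcription start (GRCm38.p6) were at hand for 5 of the 8 genes (6 windows, 2 of them for Greb1). They were searched on both strands for the forkhead motifs TGTTTAC and TATTTAC and for the GATA motif AGATAA. Among 32851 windows of this length over all genes, 3.17% held TGTTTAC, 2.73% held TATTTAC, 5.76% held either forkhead motif and 9.99% held AGATAA. Each sequence is written 5′ to 3′ in the direction of the gene, and capitals mark a motif match.
Tle3, chr9:61372116-61372365, plus strand: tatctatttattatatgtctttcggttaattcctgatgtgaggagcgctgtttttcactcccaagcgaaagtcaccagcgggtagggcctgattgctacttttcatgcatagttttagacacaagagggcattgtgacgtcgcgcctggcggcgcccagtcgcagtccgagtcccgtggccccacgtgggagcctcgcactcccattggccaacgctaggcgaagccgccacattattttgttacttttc
Spdef, chr17:27728952-27729201, minus strand: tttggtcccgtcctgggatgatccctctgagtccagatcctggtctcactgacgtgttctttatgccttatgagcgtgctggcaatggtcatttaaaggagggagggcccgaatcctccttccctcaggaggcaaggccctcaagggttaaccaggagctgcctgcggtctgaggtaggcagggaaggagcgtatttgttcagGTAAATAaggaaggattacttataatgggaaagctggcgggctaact
The capitals in the Spdef window spell GTAAATA, the reverse complement of TATTTAC, 47 to 41 bases before the start. No match to these letters was present in the windows of Tle3, Gata3, Greb1 or Agr2. The Tle3 window held 17 CG pairs at a GC content of 52.4% and the Spdef window held 7 CG pairs at 52.8%, against a median of 6 CG pairs and 52.4% over all windows. A match is a run of letters in this window, and no binding was measured in these samples.

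Tle3 was the gene of the set that rose, by 1.23-fold. Tle3 (ENSMUSG00000032280) occupies 61372366 to 61418497 on chromosome 9 of GRCm38 (plus strand), its longest coding transcript has 20 exons, and no other annotated gene overlaps it. Its estimated counts were 3147, 3320 and 3386 with Hnf3a and 2372, 2602 and 2598 with pcDNA. Its levels were 3.71, 3.59 and 3.94 FPKM with Hnf3a (3.75 ± 0.181, SD, n = 3) and 3.00, 3.04 and 3.05 FPKM with pcDNA (3.03 ± 0.0242, SD, n = 3). Every Hnf3a library lay above every pcDNA library, and the Hnf3a libraries varied more among themselves. The log2 fold change was 0.30 (SE 0.049, 95% interval of the fold 1.14 to 1.32, edgeR adjusted p 0.00341), rank 189 by p among all genes tested. Groups without overlap in CPM (counts scaled to the library total) were found for 19.1% of all genes tested. The call was lost with limma on log2(FPKM + 0.1), with a log2 fold change of 0.30 and an adjusted p of 0.084, and on log2(FPKM + 1), where the adjusted p was 0.0961.

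Fibroblast transcripts were unevenly present in the same libraries. The summed level of 6 fibroblast markers was 0.141, 7.45 and 9.3 FPKM in Hnf3a libraries 1, 2 and 3, and between 0.0336 and 0.1 FPKM with pcDNA, and 3, 6 and 6 of the 6 markers lay above the detection floor of 12 counts in the Hnf3a libraries against 0, 2 and 1 with pcDNA. In Hnf3a library 1, where collagen gene Col1a1 was at 0.0633 FPKM, Tle3 was at 48.5 CPM, between the 46.7 and 51.7 CPM of libraries 2 and 3 and above the 39.2, 39.5 and 39.8 CPM of the pcDNA libraries. With Hnf3a library 1 alone against the 3 pcDNA libraries, the log2 fold change of Tle3 was 0.29. In that fit the lone library is assumed to vary like the pcDNA group. The part of fibroblast transcripts in the Tle3 difference was not tested. In bulk samples, fewer cells of a type and less RNA per cell cannot be told apart.

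**Figure D1:**
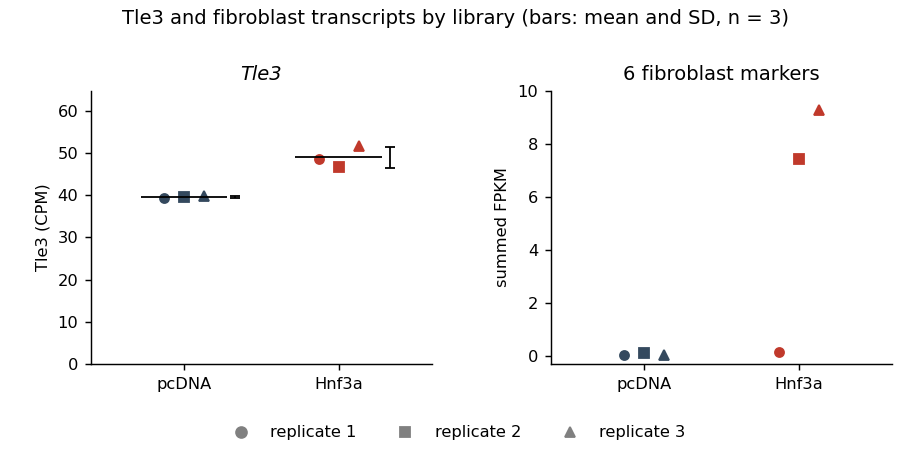
Left, Tle3 in CPM by group, with mean and SD (n = 3). Right, the summed FPKM of 6 fibroblast markers in the same libraries, 1 point per library. Hnf3a library 1, at 0.141 FPKM of fibroblast markers and 48.5 CPM of Tle3, lies among the other Hnf3a libraries on the left and near the pcDNA libraries on the right.

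Grhl2 was the most abundant gene of the set and did not pass the test. Grhl2 (ENSMUSG00000022286) occupies 37233036 to 37363569 on chromosome 15 (plus strand), with 16 exons in its longest coding transcript, and 3 annotated genes on the opposite strand overlap it. The estimated counts were 6853, 7492 and 6704 with Hnf3a and 6365, 7284 and 7092 with pcDNA. Grhl2 was at 10.9, 11.0 and 10.6 FPKM with Hnf3a (10.8 ± 0.218, SD, n = 3) and at 10.9, 11.5 and 11.3 FPKM with pcDNA (11.2 ± 0.298, SD, n = 3). The groups overlapped. The log2 fold change was -0.06 (SE 0.035, edgeR adjusted p 0.494), and the 95% interval of the fold ran from 0.909 to 1.01.

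Gata3, which encodes a GATA factor of breast luminal cells, T cells and the developing collecting duct, was present at a trace level in both groups. Gata3 (ENSMUSG00000015619) occupies 9857078 to 9890034 on chromosome 2 (minus strand) and overlaps the coding genes 9230102O04Rik (same strand) and 4930412O13Rik (opposite strand), so its few counts are uncertain. The counts were 42, 34 and 52 with Hnf3a and 26, 50 and 41 with pcDNA, where about 4 counts were taken as 1 sequenced fragment. The level was 0.145, 0.105 and 0.177 FPKM with Hnf3a (0.142 ± 0.0364, SD, n = 3) and 0.0947, 0.17 and 0.141 FPKM with pcDNA (0.135 ± 0.0378, SD, n = 3), and the groups overlapped. The log2 fold change was 0.06 (SE 0.35, edgeR adjusted p 0.973) with a 95% interval of the fold from 0.614 to 1.77, which holds changes in both directions. The sign turned without Hnf3a replicate 3 (-0.118) and without pcDNA replicate 1 (-0.13).

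Spdef and Greb1 were at or under the floor of 12 counts, taken as about 3 fragments and equal to 0.169 to 0.198 CPM, in every library. Spdef (ENSMUSG00000024215; minus strand of chromosome 17, 27714352 to 27728953, 6 exons) had 2, 0 and 0 counts with Hnf3a and 0 counts in all 3 pcDNA libraries. Greb1 (ENSMUSG00000036523; minus strand of chromosome 12, 16670615 to 16800886, 35 exons) had 0, 0 and 8 counts with Hnf3a and 0, 0 and 12 counts with pcDNA. Neither gene rose above the floor with Foxa1 at 284 FPKM or more, and no fold is given for either.

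**Figure D2:**
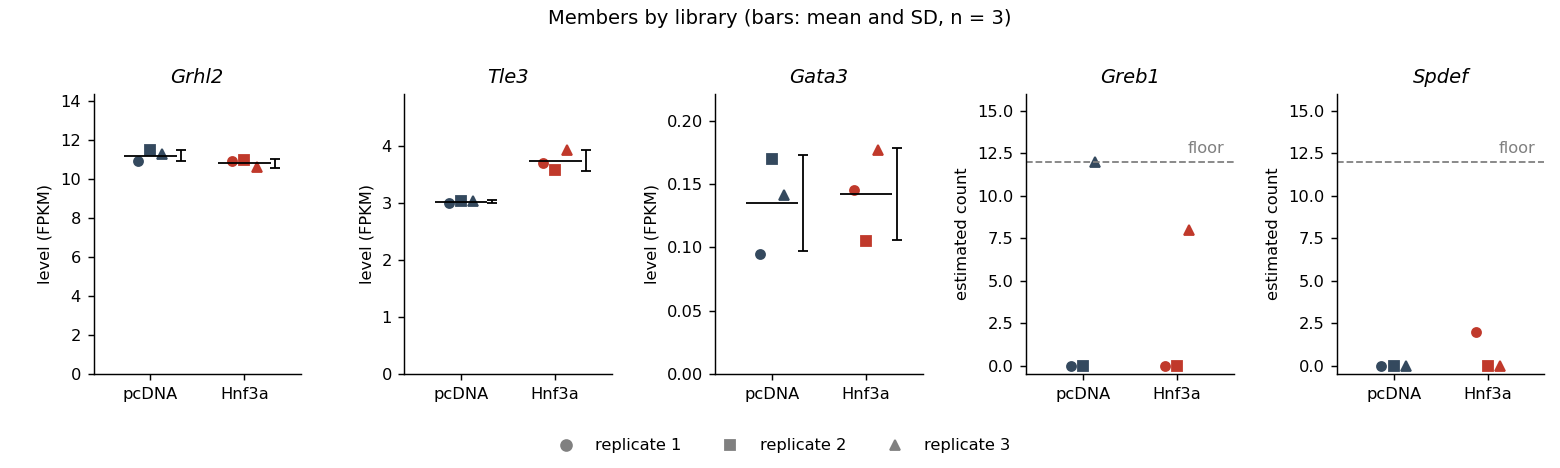
The 5 analysed genes in each of the 6 libraries (points), by group: Grhl2, Tle3 and Gata3 in FPKM with mean and SD (n = 3), Greb1 and Spdef in estimated counts with the floor of 12 counts as a dashed line. Grhl2 lies at 10.6 to 11.5 FPKM, Tle3 at 3.00 to 3.94 FPKM with the groups apart, Gata3 at 0.0947 to 0.177 FPKM, and Greb1 and Spdef at or under the floor.

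In order of level per length (FPKM), Grhl2 stood above Tle3 and Tle3 above Gata3 in every library, without overlap between neighbours. Greb1 and Spdef lay below these and could not be ordered against each other. In the test, 1 of the 3 genes was called, higher in the Hnf3a group, against 1.04% of all genes tested in that direction, and the median log2 fold change of the 3 was 0.06.

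Among the TLE corepressors, Tle3 stood below Tle4 and above Tle1 in FPKM in every library, and none of the other family members passed the test. Tle1 was at 2.47 ± 0.0268 FPKM in the Hnf3a group and 2.37 ± 0.0993 FPKM in the pcDNA group (SD, n = 3), with a 95% interval of the fold from 0.947 to 1.13. Tle4 was at 4.19 ± 0.142 and 4.32 ± 0.211 FPKM, with an interval from 0.884 to 1.05. Tle5, a short family member that lacks the WD40 repeats, was the most abundant at 34.5 ± 2.23 and 32.2 ± 1.09 FPKM (log2 fold change 0.09, edgeR adjusted p 0.44). Tle6 was at 0.456, 0.614 and 0.557 FPKM with Hnf3a and 0.339, 0.389 and 0.385 FPKM with pcDNA. The Tle6 groups did not overlap, at a log2 fold change of 0.54 that missed the threshold (edgeR adjusted p 0.244). Of the 5 genes listed beside Tle3, edgeR called 0, DESeq2 and both limma fits also called 0, and 1 gene had an unadjusted p under 0.05.

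The share of Tle3 in the summed FPKM of Tle1, Tle2, Tle3 and Tle4 was 35.9%, 34.1% and 37.0% with Hnf3a and 30.3%, 30.4% and 32.3% with pcDNA. The groups did not overlap and differed by 4.7 percentage points on average. The exact permutation p (both sides) was 0.1, the smallest that 3 libraries against 3 allow, so the test could not pass the threshold. The share is built from the same Tle3 values as the call above and is given as a description.

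**Figure D3:**
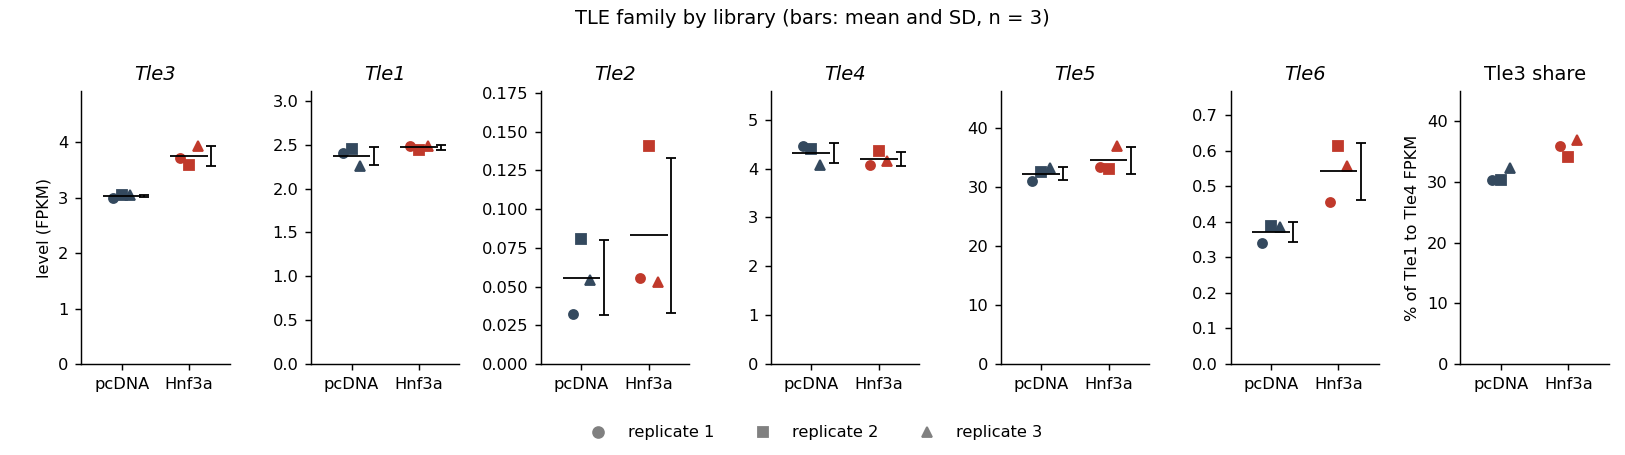
FPKM of the TLE genes by library and group, each on its own axis with mean and SD (n = 3), and, at the right, the percentage of Tle3 in the summed FPKM of Tle1 to Tle4. Tle3 is the gene whose Hnf3a libraries (3.59 to 3.94 FPKM) all lie above its pcDNA libraries (3.00 to 3.05 FPKM) and pass the test, while Tle1 and Tle4 overlap between the groups.

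The other transcription factors and cofactors that work with FOXA1 in hormone tissues were expressed at moderate or low level, and none was called. Of 12 listed genes 9 were tested, edgeR called 0, DESeq2 and both limma fits called 0, and 1 had an unadjusted p under 0.05, with a median log2 fold change of -0.02. The highest by level were Xbp1, a factor of the secretory stress response (13.2 FPKM in the Hnf3a group and 13.6 FPKM in the pcDNA group, edgeR adjusted p 0.775), and Tfap2a, an AP-2 factor (9.19 and 9.28 FPKM, edgeR adjusted p 0.924). Next came Nr3c1, the glucocorticoid receptor (7.28 and 7.48 FPKM), Hoxb13, a prostate homeobox factor (5.83 and 5.31 FPKM), the nuclear receptor corepressor Nrip1 (3.9 and 4.08 FPKM) and the histone methyltransferase Kmt2c (1.59 and 1.6 FPKM), with edgeR adjusted p-values of 0.574 to 0.937. The next 2 genes were picked after their values were seen, 1 as the oestrogen receptor gene and 1 for the smallest p of the list. The oestrogen receptor gene Esr1 was at 0.257 FPKM in the Hnf3a group and 0.229 FPKM in the pcDNA group (edgeR adjusted p 0.82). Gata2 was at 0.126 ± 0.0295 FPKM against 0.0723 ± 0.0197 FPKM (SD, n = 3), with a log2 fold change of 0.77 that did not hold after adjustment (edgeR p 0.0497, adjusted p 0.368).

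Among further genes known as FOXA1, oestrogen or androgen targets, the simple keratins Krt18 and Krt19 rose. Ccnd1 fell, in a call that most of the alternative fits lost, and the others did not pass the test. Of 19 listed genes 15 were tested, 2 were higher, 1 was lower and 12 were not called (over all genes tested, 1.04% were higher and 2.13% lower), and the median log2 fold change was 0.08. Krt18 was at 250, 247 and 245 FPKM with Hnf3a and 219, 211 and 212 FPKM with pcDNA (log2 fold change 0.20, SE 0.029, edgeR adjusted p 0.00148). Krt19 was at 191, 197 and 197 FPKM with Hnf3a and 167, 160 and 175 FPKM with pcDNA (log2 fold change 0.21, SE 0.034, edgeR adjusted p 0.00269). The groups did not overlap for either keratin. Krt8, the partner chain of Krt18, was at 148 ± 0.9 FPKM against 142 ± 1.26 FPKM (SD, n = 3) and missed the threshold (log2 fold change 0.06, edgeR adjusted p 0.424). The Krt8 groups did not overlap either.

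Ccnd1, which encodes cyclin D1, was at 137, 137 and 136 FPKM with Hnf3a and 146, 149 and 145 FPKM with pcDNA, a log2 fold change of -0.11 (SE 0.026, edgeR adjusted p 0.0355). This call was lost in 5 of the 6 fits that left out 1 library, with adjusted p-values of 0.0596 to 0.222 (it held without Hnf3a replicate 1, at 0.0274), and with the replicate number as a block (adjusted p 0.0625). It was also lost in edgeR with total-count scaling (adjusted p 0.0563) and with all genes of at least 1 count (0.056). Both limma fits lost it too (adjusted p 0.136 and 0.122). Greb1l, the paralogue of Greb1, also picked after its values were seen, was at 3.85 and 3.53 FPKM (edgeR adjusted p 0.351), and the next most abundant genes of the list, Pmepa1 and Slc39a6, were at 24.4 and 12.6 FPKM in the Hnf3a group and 23.2 and 12.2 FPKM in the pcDNA group. Tmprss2, a serine protease gene raised by androgen in prostate, was at 2.88, 2.95 and 3.19 FPKM with Hnf3a and 2.3, 2.43 and 2.74 FPKM with pcDNA. Stc2, an oestrogen-induced secreted factor, was at 2.15, 2.04 and 2.16 FPKM and 2.38, 2.67 and 2.7 FPKM. These last 2 genes, picked after their values were seen, had groups that did not overlap and missed the threshold in edgeR (adjusted p 0.0836 and 0.0726), and DESeq2 called both.

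The list of epithelial genes known to depend on GRHL factors, which also held the factors Grhl1 and Grhl3 themselves, was mostly not called. Of 18 tested, Ovol2 rose, Ehf and Cldn7 fell and 15 did not pass, against 1.04% higher and 2.13% lower over all genes tested. The median log2 fold change was -0.03. Ehf, an ETS factor of epithelia, was at 16.5, 15.7 and 15.4 FPKM with Hnf3a and 19.8, 20.9 and 21.0 FPKM with pcDNA (log2 fold change -0.38, SE 0.039, edgeR adjusted p 6.13e-05). Its groups were far apart compared with their spread. Cldn7, a tight junction claudin, was at 75.4, 78.8 and 78.7 FPKM against 90.0, 85.5 and 89.0 FPKM (log2 fold change -0.19, SE 0.034, edgeR adjusted p 0.00556), and its call was lost without pcDNA replicate 1 (adjusted p 0.0553). Ovol2, a zinc finger repressor of mesenchymal genes, was at 1.66, 1.58 and 1.48 FPKM against 0.886, 0.599 and 1.10 FPKM, 1.81-fold higher (log2 fold change 0.85, SE 0.20, edgeR adjusted p 0.037). The Ovol2 call held in 1 of the 6 fits that left out 1 library (without pcDNA replicate 3, adjusted p 0.0271) and was lost in the others (adjusted p 0.0739 to 0.15) and in both limma fits.

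The other abundant genes of the list, apart from Cldn7, did not pass the test. Cldn4 was at 206 FPKM in the Hnf3a group and 219 FPKM in the pcDNA group (edgeR adjusted p 0.0836, called by DESeq2), Cdh1 at 112 and 107 FPKM (0.375), Epcam at 104 and 104 FPKM (0.919), Cldn3 at 60.4 and 65.6 FPKM (0.25) and Spint2 at 58.4 and 58 FPKM (0.999). Outside the naming rule, the family members Grhl1 (2.96 and 2.66 FPKM) and Grhl3 (6.03 and 5.4 FPKM) had log2 fold changes of 0.15 each, with edgeR adjusted p-values of 0.542 and 0.468.

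**Figure D4:**
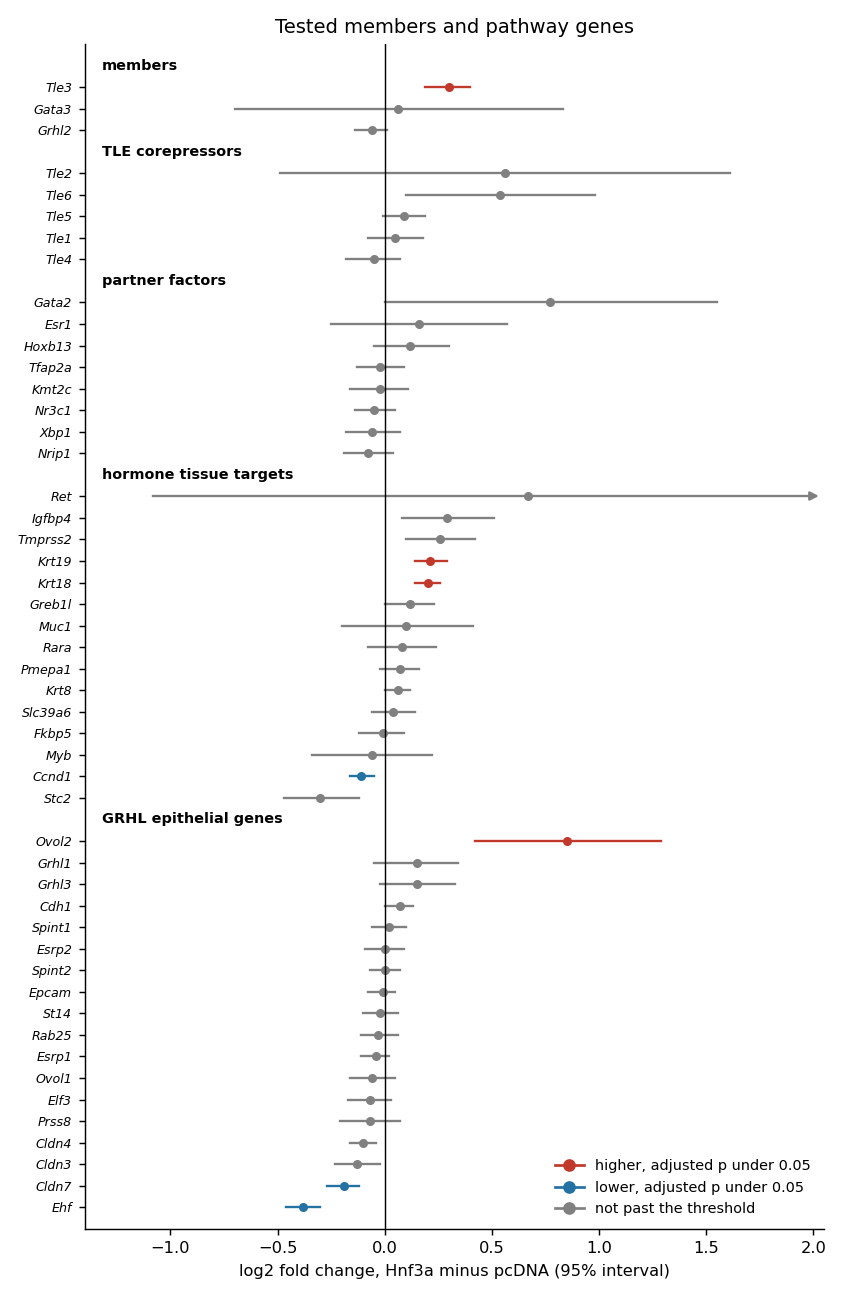
Log2 fold change (Hnf3a minus pcDNA) with its 95% interval from edgeR for the tested genes of the set and of the 4 lists (1 partner factor is not drawn), in red (higher) or blue (lower) where the adjusted p was under 0.05 and in grey elsewhere. Tle3 stands at 0.30 and Grhl2 and Gata3 near 0, and an interval that runs past the axis, such as that of Ret, is marked by an arrow.

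Over the 4 lists together, 47 of 54 genes were tested, 3 were higher and 3 lower, and 15 had groups that did not overlap, a pattern found for 19.1% of all genes tested. The 6 calls among 47 stand beside the 3.17% called over all genes tested. The lists were chosen with earlier results of these data known, so this comparison is a description and not a test. With Hnf3a library 1 alone against pcDNA, the log2 fold changes of Krt18, Krt19 and Ovol2 were 0.225, 0.194 and 0.939. With all libraries they were 0.199, 0.213 and 0.853. Those of Ehf, Cldn7 and Ccnd1 were -0.315, -0.226 and -0.097, against -0.379, -0.192 and -0.109 with all libraries. That library held 0.141 FPKM of the fibroblast markers, above the 0.0336 to 0.1 FPKM of the pcDNA libraries. A group of 1 library has no spread of its own, and the part of fibroblast transcripts was not tested. The medians of the lists, from -0.03 to 0.09, lay near the 0.001 of all genes.

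**Figure D5:**
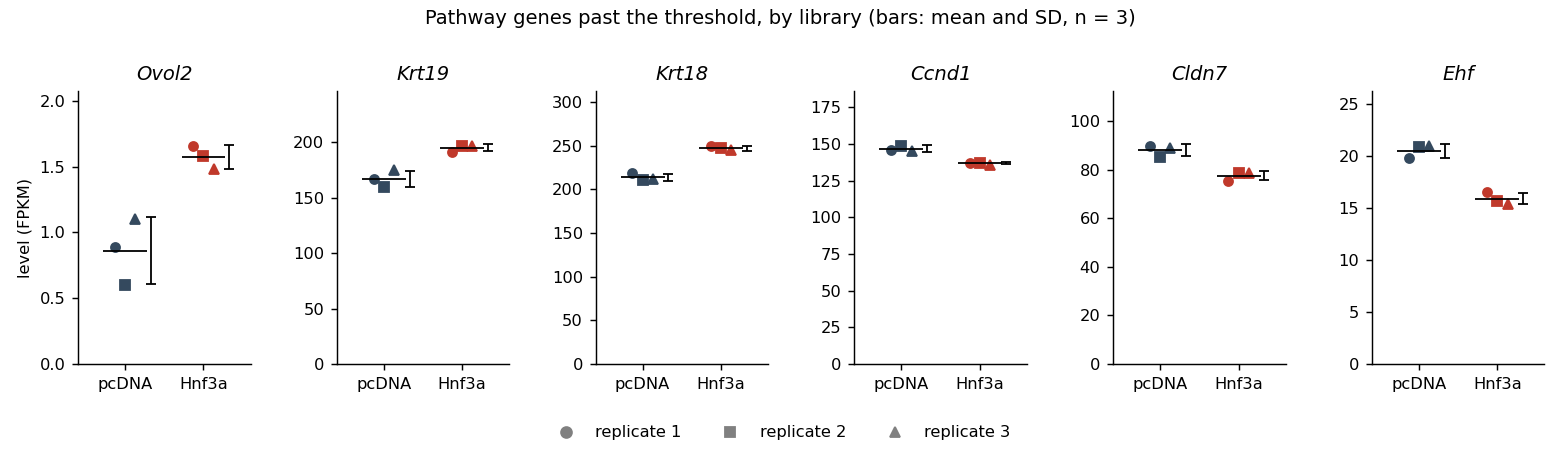
FPKM by library of the 6 called genes of the lists, by group, each on its own axis with mean and SD (n = 3). Krt18, Krt19 and Ovol2 are higher and Ccnd1, Cldn7 and Ehf lower in the Hnf3a libraries, without overlap between groups.

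Markers of other cells were read beside these results. The 6 macrophage markers summed to 13.0, 16.5 and 18.0 FPKM with Hnf3a and 14.3, 13.4 and 12.4 FPKM with pcDNA. Most of that sum was Cd68, at 10.8 to 12.7 FPKM in every library. The macrophage genes Lyz2 (0, 265 and 273 counts with Hnf3a, 16, 44 and 6 with pcDNA), C1qa (0, 27 and 27 against 0, 0 and 0) and Adgre1 (9, 41 and 38 against 0, 8 and 0) had more counts in Hnf3a libraries 2 and 3 than in the others. Those libraries also held the most fibroblast transcripts. C1qa and Adgre1 were too low to test, and Lyz2 did not pass (edgeR adjusted p 0.597). Csf1r was well above the floor in every library, at 762, 853 and 836 counts with Hnf3a and 690, 554 and 657 with pcDNA. Of the 6 goblet and secretory cell markers 4 were analysed, and they summed to 0.114 to 0.173 FPKM with Hnf3a and 0.0208 to 0.0659 FPKM with pcDNA. Muc2 and Muc5ac, the defining mucins that accompany Spdef in goblet cells, were too low to test. So was Fcgbp, at 0, 28 and 17 counts with Hnf3a and 9, 3 and 5 with pcDNA. Clca1 had 34, 40 and 22 counts with Hnf3a and 5, 17 and 0 with pcDNA. Its log2 fold change of 2.02 missed the threshold (edgeR adjusted p 0.252). The T cell markers Cd3g, Cd4 and Cd8a, beside which Gata3 is expressed in T cells, were under the floor in every library. The collecting duct markers summed to 4.18 to 4.88 FPKM with Hnf3a and 5.15 to 6.23 FPKM with pcDNA. Of these, Aqp3 was lower in the Hnf3a group (3.41 against 4.84 FPKM, log2 fold change -0.51, edgeR adjusted p 0.0254). Scnn1g was higher (log2 fold change 2.40, edgeR adjusted p 0.0281). It had 89, 56 and 26 counts with Hnf3a and only 16, 8 and 6 with pcDNA, around the floor. Hsd11b2 (0.693 against 0.532 FPKM) and Avpr2 (0.121 against 0.193 FPKM) did not pass (edgeR adjusted p 0.596 and 0.662). The defining gene Aqp2 had at most 4 counts in any library. The part of these markers of other cells in the results above was not tested.

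The 2 genes most like each abundant gene were found by Pearson's r of log2 CPM over the 6 libraries, as a description over libraries that share their groups. For Tle3 these were Mta3 (r = 0.9979) and Gpr137c (r = 0.9933), neither of which passed the test (edgeR adjusted p 0.7 and 0.469), and 103 genes had an r over 0.95. For Grhl2 they were the predicted genes Gm21994 (r = 0.996) and Gm16278 (r = 0.9902), and 45 genes had an r over 0.95. In all, 17823 genes were compared.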

How the data were processed

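RNA of 3 Hnf3a and 3 pcDNA libraries of TKPTS cells was analysed, in groups taken from their labels. The labels describe selection of polyadenylated RNA, strand marking, unique molecular identifiers and paired reads. The submitters' processing notes name cutadapt 1.9, HISAT2 2.0.4, UMI-tools, StringTie 1.3.4d, DESeq2, edgeR and mm10, without their roles, and the use of strand in counting is not given in the sources used here. Antisense partners of Grhl2, Gata3 and Greb1 may therefore share reads with them. For each gene and library the authors deposited an estimated count (whole numbers, so nothing was rounded) and an FPKM. More genes sat at exactly 4 counts (1148 in Hnf3a replicate 1) than at 3 (680) or 5 (378), so 1 fragment was taken as about 4 counts and the floor as 12 counts, which covers counting error only. Only counts of 3, 4 and 5 were compared, so a smaller worth per fragment was not tested. The lowest row total in the table was 1, so genes without a count are not listed there. Of 29514 genes shared with GENCODE vM21, 26729 had the same coordinates (GRCm38).

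Genes were filtered with filterByExpr, scaled by TMM and tested with edgeR 4.0.16 (robust quasi-likelihood F test, both sides) in R 4.3.3, with Benjamini-Hochberg adjustment over 17824 genes and a threshold of 0.05. The SE of an edgeR log2 fold change was computed back from that fold change and its F statistic. Intervals are 95%, were built from this SE and are unadjusted. The members and lists were chosen with earlier results of these data known. Genes named were Foxa1, the 8 members, every called list gene, up to 6 genes of highest mean FPKM per list, and the 2 genes most like each member with at least 1 CPM. The lists were partner factors, TLE corepressors, hormone tissue targets, GRHL epithelial genes and markers of 7 cell types. The alternatives were 2 other filters, 2 other scalings, counts divided by 4, a replicate block, each library left out, the Wald test of DESeq2 1.42.0 and limma 3.58.1 on log2(FPKM + 0.1) and log2(FPKM + 1), a scale that understates the change of low genes. A fit with Hnf3a library 1 alone was chosen after seeing the data. The replicate numbers were not treated as pairs of libraries, and no label used here says whether they are. Promoters came from RefSeq. Some genes of the lists are not reported here by name.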

Additional observations from a re-analysis of the deposited data

How the results depend on the processing

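Against 565 genes, limma called 236 on log2(FPKM + 0.1) and 231 on log2(FPKM + 1), Hnf3a library 1 alone gave 322, and leaving out each library gave 263 to 643. Among the 3 tested members, both limma fits called 0 (1 had an unadjusted edgeR p under 0.05) and the others called Tle3, whose log2 fold change ran from 0.26 to 0.332 when each library was left out. Grhl2 passed in none of 16 alternatives (-0.08 to -0.04) and Gata3 in none of 15, since the filter on 1 FPKM removed it. The 6 list genes called became 3 to 6 when each library was left out (3 without pcDNA replicate 1, which left Ehf, Krt18 and Krt19). With Hnf3a library 1 alone, the log2 fold changes of Krt19, Ccnd1 and Ovol2 were 0.194, -0.097 and 0.939. DESeq2's Wald test called 824 genes and 9 list genes. Foxa1 ran from 4.893 to 5.019 with each library left out. The cause of these differences was not tested.

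With the replicate number as a replicate block, 463 genes (138 higher, 325 lower), Tle3 and 5 list genes were called, and Ccnd1 was lost. The same-numbered libraries did not deviate together (correlations -0.028, -0.011 and 0.006), so the numbers were not read as pairs. The interval of the Gata3 fold reached 1.77, and Greb1 and Spdef, at 12 counts or fewer per library, were not tested.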
